A study of Homo sapiens with 6 samples.

Results

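Chaperones and protein folding enzymes were described here as a family of 66 genes, taken from the 6357 assembled loci of the table by gene symbol: the HSP70, HSP90, HSP60, HSP10 and small heat shock proteins, the J-domain proteins, the chaperonin CCT, prefoldin, the protein disulfide isomerases and their oxidases, the lectin chaperones, the FKBP prolyl isomerases, BAG co-chaperones, and the unfolded protein response genes XBP1 and ERN1. By the place where each protein works, 32 were assigned to the cytosol (nuclear members included), 5 to mitochondria and 21 to the endoplasmic reticulum (ER). XBP1 and ERN1 were kept apart, 5 members fell under none of these headings, and the read-through locus DNAJC25-GNG10 was not assigned. The samples were 3 plates of unedited (WT) HepG2 cells, an established human liver tumour line, and 3 plates of HepG2 cells in which fructosamine-3-kinase, an enzyme that repairs glycated proteins, had been knocked out by CRISPR (FN3K KO). Both were grown in EMEM with fetal bovine serum, and no added stress, drug or time course was part of the design. How many KO clones the plates stem from is not given in the sources used here, so the differences may belong to a clone as much as to the loss of FN3K, and these cannot be told apart. The comparison asks how mRNA levels of the folding machinery differ between FN3K KO and WT cells, and whether its compartments differ in the same way.

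Protein folding is divided among compartments. In the cytosol, the HSP70 and HSP90 machines, their J-domain partners, prefoldin and the ring-shaped chaperonin CCT fold newly made proteins, and heat shock factor raises the inducible members when proteins unfold. In the ER, the HSP70 protein BiP (HSPA5), the HSP90 protein GRP94 (HSP90B1), lectin chaperones and disulfide isomerases fold proteins bound for the membrane or for secretion, which the liver makes in large amounts, and the unfolded protein response, through the transcription factors ATF6, XBP1 and ATF4, adjusts their levels. Mitochondria carry their own HSP70, HSP60 and HSP10.

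Since both stress programmes act through short DNA elements, promoters of the members were read for them. The window was 250 bases before to 50 bases after each start site in the RefSeq promoter table (GRCh38.p14), both strands were searched, and 58 of the 66 members had an entry. The ER stress element, CCAAT, any 9 bases, then CCACG, lay in the promoters of 6 of 19 ER members with an entry (31.6%), of XBP1, and of 0 of 29 cytosolic and 0 of 5 mitochondrial members. Among all 27303 genes of the table, 25 (0.0916%) held it, and these 25 include the 7 members. The contrast is a description and was not tested. The HSPA5 promoter up to its start site (chr9:125241344-125241593, minus strand) is shown because HSPA5 is the textbook target of this response, with the element in capitals. It ends 48 bases before the start site, and CCAAT occurs 4 times in the window when either strand is read.

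HSPA5: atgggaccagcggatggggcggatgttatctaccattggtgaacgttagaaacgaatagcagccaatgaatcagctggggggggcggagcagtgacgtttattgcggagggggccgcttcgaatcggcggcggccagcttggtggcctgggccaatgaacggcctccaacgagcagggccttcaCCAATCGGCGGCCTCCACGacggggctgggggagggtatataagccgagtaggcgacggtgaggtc

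The other members with the element are shown to compare its 9 variable bases, each with 5 bases on either side and the element in capitals. All are read on the strand of the gene, so that an element lying on the other strand begins with CGTGG and ends with ATTGG. HSP90B1 held 2 of them.

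HSP90B1, chr12:103930211-103930239, plus strand: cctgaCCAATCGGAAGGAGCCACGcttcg
HSP90B1, chr12:103930316-103930344, plus strand: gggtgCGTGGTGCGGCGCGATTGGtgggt
CALR, chr19:12938379-12938407, plus strand: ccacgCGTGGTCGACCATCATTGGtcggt
CANX, chr5:179698773-179698801, plus strand: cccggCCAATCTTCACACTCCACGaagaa
PDIA6, chr2:10812848-10812876, minus strand: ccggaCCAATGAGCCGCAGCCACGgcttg
ERO1B, chr1:236282178-236282206, minus strand: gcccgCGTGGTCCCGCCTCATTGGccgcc
XBP1, chr22:28800598-28800626, minus strand: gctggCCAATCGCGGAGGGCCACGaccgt

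A related element, TGACGTGG, was found in 2 of 19 ER promoters, against 0.927% of all genes. They belong to HYOU1 and DNAJC10, which are shown because they were among the ER members with the lowest log2 fold change.

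HYOU1, chr11:119057381-119057398, minus strand: ccccgTGACGTGGtccaa
DNAJC10, chr2:182716127-182716144, plus strand: caccgCCACGTCAaccta

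The heat shock element was searched as 3 alternating units GAA and TTC with any 2 bases between neighbours. It lay in the promoters of 5 of 29 cytosolic members (17.2%; DNAJA1, DNAJB6, HSP90AA1, HSP90AB1 and HSPA8), of the mitochondrial HSPD1, and of 0 of 19 ER members, against 0.608% of all genes. Its shorter core GAANNTTC, which overlaps the full element, lay in 12 of 29 cytosolic promoters (41.4%) and in 1 of 19 ER promoters, that of CANX, against 8.21% of all genes. The core also lay in the promoter of the inducible DNAJB1, which is not shown. The inducible genes shown were all called higher in KO, as given below, while DNAJB1 was not. Sites of the constitutive HSPA8 and of the inducible HSP90AA1, HSPA1A, HSPA1B and HSPB1 are shown, with the full element or the core in capitals, to set the constitutive HSP70 beside inducible genes.

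HSPA8, chr11:123062174-123062196, minus strand: gccccTTCTGGAAGGTTCtaaga
HSP90AA1, chr14:102087115-102087137, minus strand: ggttcTTCCGGAAGGTTCgggag
HSPA1A, chr6:31815432-31815449, plus strand: ccctgGAATATTCccgac
HSPA1B, chr6:31827628-31827645, plus strand: ccctgGAATATTCccgac
HSPB1, chr7:76302486-76302503, plus strand: cgagaGAAGGTTCcagat

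A match of letters describes the window and is not a measured binding site, and the absence of a match says nothing about a factor. The lists, values and fold changes that follow come from the deposited FPKM values (fragments scaled to transcript length and library size). Fold changes are KO minus WT on the log2(FPKM + 1) scale, which understates the change of genes with low FPKM, and a member is called higher or lower when limma, run on all 6357 loci, gives it a Benjamini-Hochberg adjusted p under 0.05. Values are listed in the order of replicates 1, 2 and 3.

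The knocked-out gene, FN3K, had 27.7, 21.9 and 23.2 FPKM in WT and 0.782, 1.03 and 0.704 FPKM in KO. Log2 values correlated at 0.980 to 0.983 within groups and at 0.923 to 0.931 across them, over all loci. More loci were lower than higher in KO: over all loci the median change was -0.14 on the log2 scale, 36.5% were called lower and 21.2% higher. The summed FPKM of all loci was not lower, with a KO mean at 101.7% of WT. After scaling of the libraries by the median ratio, the median change was -0.02. Of the 11 hepatocyte markers looked for, 10 were listed, at 15.6 to 6533 FPKM, and their sum lay between 10849 and 10976 FPKM in WT and between 17286 and 18353 FPKM in KO. None of 10 markers of fibroblasts, endothelium or leukocytes was listed by name. In bulk RNA, fewer cells expressing a gene and less RNA per cell cannot be told apart.

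Of the 66 members, 33 were lower in FN3K KO, 11 were higher and 22 did not pass the test, and the median log2 fold change was -0.22. Among the 4926 loci with a gene name, 36.7% were called lower and 23% higher, so the family as a whole held more lower calls and fewer higher calls. All 3 KO values lay below all 3 WT values for 36 members and above them for 13, against 39.8% and 23.6% of all loci. At the fold limit of a log2 fold change beyond 1 in size with an unadjusted p under 0.05, 7 members were lower (HYOU1, PDIA2, HSP90B1, HSPA5, DNAJC10, ERO1B and DNAJB9, all of the ER) and 1 was higher, the cytosolic HSPB1, against 3.32% and 4.31% of all loci. The compartments differed. Of the ER members, 16 of 21 were lower and 3 were higher (median -0.78). Of the cytosolic members, 11 of 32 were lower and 7 were higher (median -0.14). These cytosolic shares lay near the 36.7% and 23% of loci with a gene name, and the median near the -0.14 of all loci. Of the mitochondrial members, 3 of 5 were lower and 0 were higher (median -0.39). In log2 fold change, 14 of the 21 ER members lay below every cytosolic member. The difference between compartments was not tested, since their members are not replicates.

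**Figure D1:**
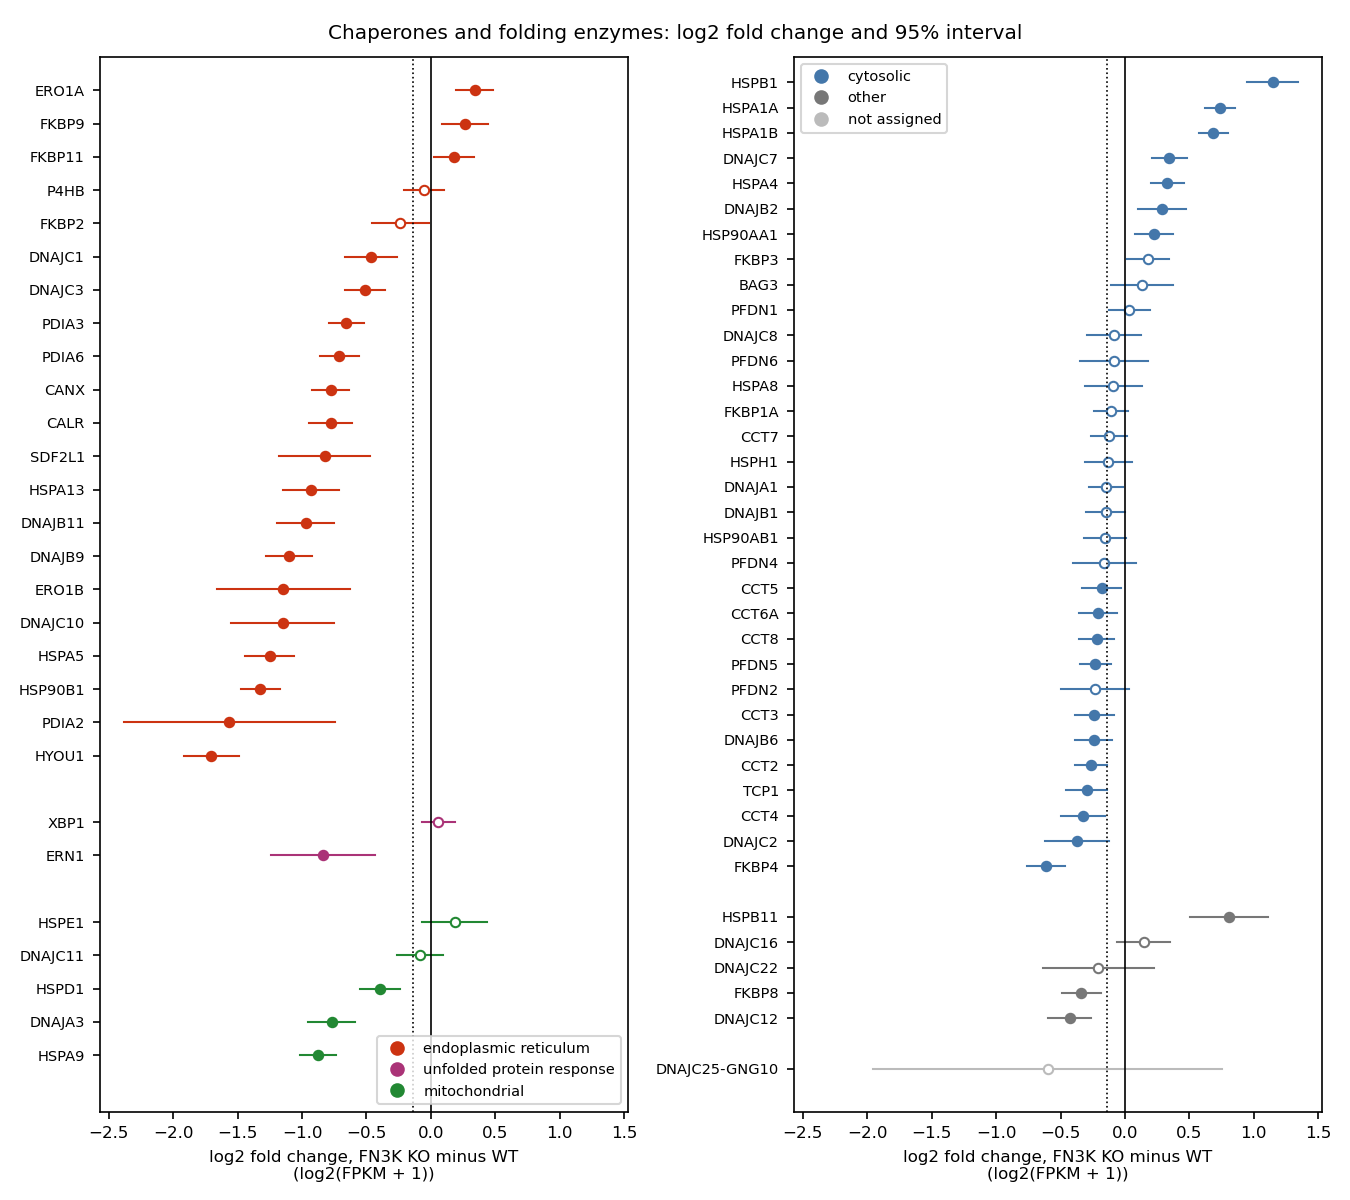
Log2 fold change (FN3K KO minus WT, log2(FPKM + 1)) of each of the 66 members with its 95% interval from limma, by compartment. Filled points passed an adjusted p under 0.05 and open points did not; the solid line marks 0 and the dotted line the all-loci median, -0.14. The ER members reach down to -1.70 (HYOU1), while the cytosolic members lie between -0.61 (FKBP4) and 1.15 (HSPB1).

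WT replicate 1 stood somewhat apart from the other WT libraries in these genes. It held the lowest of the 3 WT values for 53 of 66 members (80.3%) and for 18 of 21 ER members, against 55.1% of all loci. Without it, the ER counts were 17 lower and 2 higher with a median of -0.85, and the cytosolic counts were 15 lower and 7 higher with a median of -0.19. Without WT replicate 2 the cytosolic members lower were 7, and without WT replicate 3 they were 6. Without WT replicate 3 or KO replicate 2, 1 ER member was higher. A linear model with the library adjustment of the program Ballgown left 14 members lower and 4 higher. The calls lost under it were those of HSPA13, DNAJB11, DNAJC10, DNAJC1, SDF2L1, ERO1A, FKBP9 and FKBP11 in the ER, of HSPD1 in mitochondria, of HSPA4, HSP90AA1, DNAJB6, DNAJC2, DNAJC7, PFDN5 and 7 CCT subunits in the cytosol, and of ERN1, HSPB11, DNAJC12 and FKBP8, each with its sign kept.

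The HSP70, HSP110 and HSP90 proteins of the ER lumen were all lower in FN3K KO, 4 of 4, against 36.5% of all loci. HSPA5 (BiP, chr9:125234853-125241330), the HSP70 protein that binds nascent chains in the ER and restrains the stress sensors, had 550.4, 664 and 677 FPKM in WT and 264, 264 and 262 FPKM in KO. The KO values lay close together and far below every WT value, at 41.8% of the WT mean (log2 fold change -1.25, standard error 0.08, adjusted p = 5.7e-06). HSP90B1 (GRP94, chr12:103930107-103953645), which folds integrins, Toll-like receptors and other client proteins, had 640.2, 705 and 708 FPKM in WT and 282, 273 and 262 FPKM in KO (log2 fold change -1.32, standard error 0.07, adjusted p = 1.2e-06). HYOU1 (GRP170, chr11:119044189-119057202), a large HSP70 relative that exchanges nucleotide on BiP, showed the lowest log2 fold change of all members. Its values were 185, 229 and 227 FPKM in WT and 63.1, 71.1 and 60.1 FPKM in KO (log2 fold change -1.70, standard error 0.10, adjusted p = 1.9e-06). HSPA13, a little-studied HSP70 relative of the microsome, fell from 29.8 ± 3.92 to 15.1 ± 0.811 FPKM (SD, n = 3 in each group), with no overlap between the groups. For single genes such as these, an exact two-sided permutation test of 3 libraries against 3 cannot go below p = 0.1.

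The partners of BiP with a luminal J domain, which deliver clients to it and stimulate its ATPase, were lower in 5 of 5 cases. Over all loci, 36.5% were called lower. DNAJB9 (ERdj4) had 27.2, 31.8 and 32.3 FPKM in WT and 13.8, 14.0 and 13.0 FPKM in KO (log2 fold change -1.10, standard error 0.08, adjusted p = 7.5e-06). DNAJB11 (ERdj3) had 80.2, 98.8 and 105 FPKM in WT and 48.7, 44.5 and 49.6 FPKM in KO, or 50.2% of the WT mean (log2 fold change -0.97). DNAJC10 (ERdj5), a J-domain protein that is also a disulfide reductase, had a low level of 9.38 ± 1.69 FPKM in WT and 3.70 ± 0.912 FPKM in KO (SD, n = 3 in each group). All KO values lay below all WT values for each of the 5, against 39.8% of all loci. DNAJC3 (p58IPK) and DNAJC1 changed less, with log2 fold changes of -0.51 and -0.47. Under the library adjustment of Ballgown 2 of the 5 were lower, DNAJB9 and DNAJC3, and the calls were lost for DNAJB11 (-0.78), DNAJC10 (-0.76) and DNAJC1 (-0.34). SDF2L1, a luminal protein that forms a complex with DNAJB11, had 38.4, 52.6 and 58.2 FPKM in WT and 23.2, 32.1 and 27.3 FPKM in KO (log2 fold change -0.82, standard error 0.16, adjusted p = 0.0021). Its WT libraries were spread widely, WT replicate 1 being the lowest, and under the Ballgown adjustment its log2 fold change was -0.29 and did not pass the test (adjusted p = 0.11).

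The lectin chaperones, which hold glycoproteins that still carry a terminal glucose, were both lower and by nearly the same amount. Calreticulin (CALR, chr19:12938578-12944489) had 555, 629 and 647 FPKM in WT and 348, 360.2 and 356 FPKM in KO, and calnexin (CANX, chr5:179678628-179730925), its membrane-bound counterpart, had 337, 371 and 364 FPKM in WT and 217, 207 and 199.7 FPKM in KO. Both stood near 58% of WT: 58.1% for CALR and 58.2% for CANX, each with a log2 fold change of -0.78 (standard errors 0.07 and 0.06, adjusted p = 3.8e-05 and 1.6e-05).

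The disulfide isomerases and oxidases did not move together. PDIA3 (ERp57), the isomerase that works with the lectin chaperones, had 288, 294 and 311 FPKM in WT and 190.3, 179.7 and 196 FPKM in KO (log2 fold change -0.66, standard error 0.06, adjusted p = 3.1e-05). PDIA6, an isomerase associated with BiP, had 289, 333 and 321 FPKM in WT and 191, 198 and 185 FPKM in KO (log2 fold change -0.71, standard error 0.07, adjusted p = 4e-05). Both were lower by a margin larger than the spread in either group. P4HB (protein disulfide isomerase, chr17:81843159-81860694), the most abundant of all members and also a subunit of prolyl 4-hydroxylase, had 778, 784 and 834 FPKM in WT and 770.0, 753 and 786 FPKM in KO. These values overlap, and the log2 fold change of -0.05 (95% interval -0.21 to 0.10, adjusted p = 0.53) did not pass the test. After scaling of the libraries by the median ratio the sign of P4HB turned, to 0.08. The level of P4HB therefore took 18.9% ± 0.963 of the summed ER level in WT and 30.5% ± 0.671 in KO (SD, n = 3 in each group).

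The oxidases that pass electrons from the isomerases to oxygen went opposite ways. ERO1A was higher, at 17.4, 17.2 and 17.8 FPKM in WT and 21.3, 22.2 and 23.5 FPKM in KO (log2 fold change 0.34, standard error 0.06, adjusted p = 0.0019). ERO1B was lower, at 3.21, 3.28 and 3.57 FPKM in WT and 0.908, 0.980 and 1.01 FPKM in KO, or 28.8% of the WT mean (log2 fold change -1.15, standard error 0.23, adjusted p = 0.0026). PDIA2, an isomerase best known from pancreas, was low in all libraries: 2.35, 2.64 and 2.13 FPKM in WT and 0.156, 0.191 and 0.0742 FPKM in KO. Its KO level was 5.92% of the WT mean, while the log2 fold change was -1.56 with a pseudocount of 1 and -3.39 with one of 0.1 (adjusted p = 0.0058 in the former). PDIA4 was not listed by name in the table.

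The FKBP prolyl isomerases of the ER differed from the chaperones beside them. FKBP9 was higher, with 14.4, 15.1 and 14.0 FPKM in WT and 17.3, 19.5 and 16.3 FPKM in KO (log2 fold change 0.27, adjusted p = 0.018), and FKBP11 was higher at the edge of the threshold, with 14.9 ± 0.835 FPKM in WT and 17.0 ± 0.516 FPKM in KO (SD, n = 3 in each group; log2 fold change 0.18, adjusted p = 0.049). FKBP2 had 24.9 ± 2.81 FPKM in WT and 21.0 ± 1.84 FPKM in KO (SD, n = 3 in each group) and did not pass the test (adjusted p = 0.061). The call for FKBP11 was lost under 10 of the 13 alternatives, the call for FKBP9 was lost without WT replicate 3 (0.24) and without KO replicate 2 (0.20), and FKBP2 was lower without WT replicate 1 (-0.33). FKBP11 lay between 0.14 and 0.22 when single libraries were left out.

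**Figure D2:**
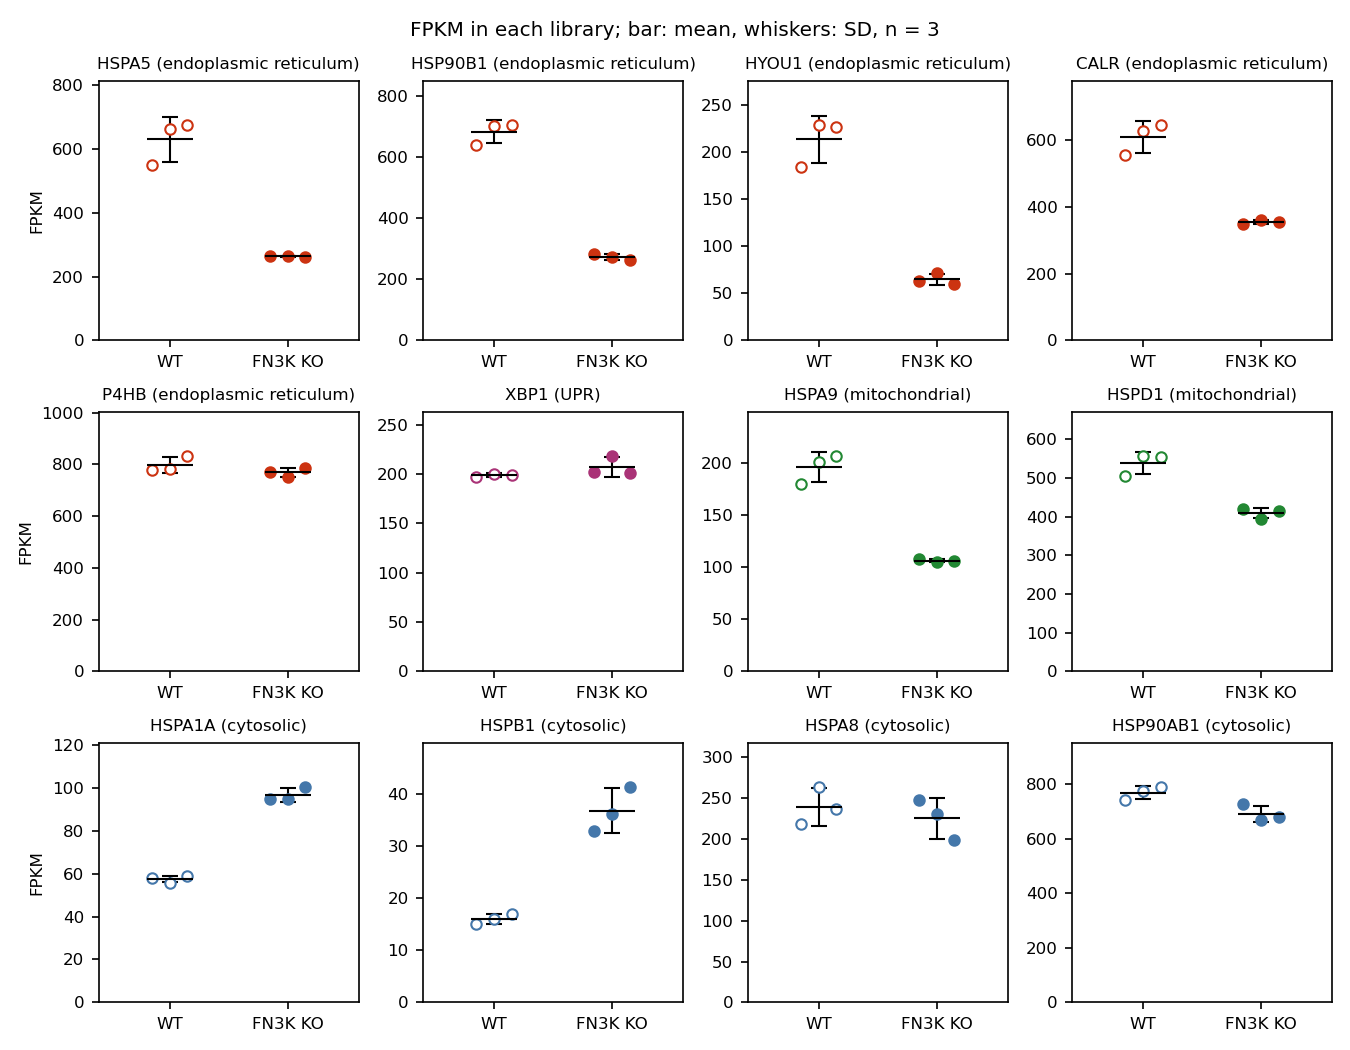
FPKM (vertical axis, from 0) of 12 members in each WT library (open points) and each FN3K KO library (filled points), with the mean as a bar and the SD as whiskers, n = 3 in each group. The KO points of HSPA5, HSP90B1, HYOU1, CALR, HSPA9 and HSPD1 lie below all WT points, those of HSPA1A and HSPB1 above them, and those of P4HB and HSPA8 overlap the WT points.

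Since FPKM is a level per length, it can be added over genes within a library. The 21 ER members summed to 3909, 4352 and 4447 FPKM in WT and to 2532, 2524 and 2520.0 FPKM in KO, or 59.6% of WT. Without P4HB the remaining 20 stood at 51.1%, and HSPA5, HSP90B1 and HYOU1 together stood at 39.3%. In WT, HSP90B1, HSPA5 and CALR followed P4HB and HSP90AB1 in the order of mean levels, ahead of HSPD1. In KO, HSPD1 came next after P4HB and HSP90AB1 with 409 ± 13.9 FPKM, followed by CALR with 355 ± 6.25, HSP90B1 with 272 ± 10.1 and HSPA5 with 263 ± 1.35 (SD, n = 3). HSP90B1 and HSPA5 differed from each other by less than the SD of HSP90B1 in KO. Of the summed level of all 66 members, the ER took 51.3% ± 0.547 in WT and 41.0% ± 0.424 in KO, and the cytosol 34.9% ± 0.463 and 44.5% ± 0.610 (SD, n = 3 in each group).

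**Figure D3:**
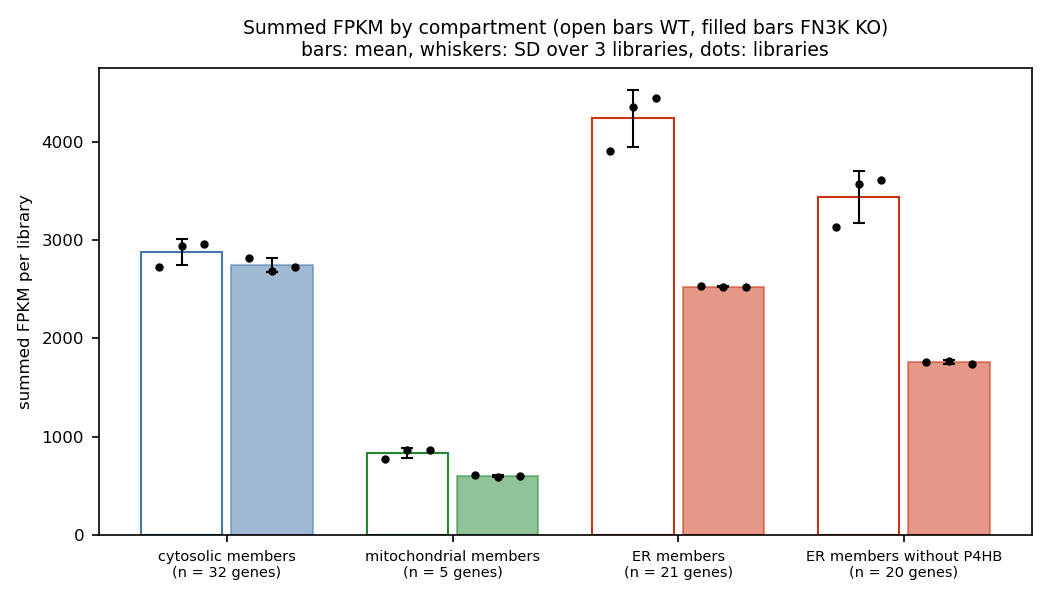
Summed FPKM per library of the cytosolic, mitochondrial and ER members, and of the ER members without P4HB (open bars WT, filled bars FN3K KO; bars are means, whiskers SD over 3 libraries, dots the libraries). The cytosolic sum in KO is 95.3% of WT, the mitochondrial sum 71.5% and the ER sum 59.6%.

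The ER members with and without the ER stress element can be set side by side. The 6 with the element (HSPA5, HSP90B1, CALR, CANX, PDIA6 and ERO1B) were all lower, with log2 fold changes from -1.32 to -0.71 and a median of -0.96. XBP1, kept apart from the ER members, also held the element but did not pass the test (log2 fold change 0.06, adjusted p = 0.38). Of the 13 ER members whose window held no match to the element, 8 were lower and 3 were higher. Their log2 fold changes ranged from -1.70 to 0.34, with a median of -0.82. Over all loci, 36.5% were called lower and 21.2% higher. The 13 include HYOU1 and DNAJC10, whose windows held the related TGACGTGG, and the lowest of them are HYOU1 (-1.70) and PDIA2 (-1.56). The 6 members with a full heat shock element also did not share a direction: HSP90AA1 was higher, DNAJB6 and HSPD1 were lower, and HSPA8, HSP90AB1 and DNAJA1 did not pass the test.

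The unfolded protein response genes XBP1 and ERN1 differed from each other. ERN1 (IRE1 alpha), the ER sensor that splices XBP1 mRNA, had 4.14, 5.02 and 5.47 FPKM in WT and 1.95, 2.81 and 2.14 FPKM in KO (log2 fold change -0.83, standard error 0.18, adjusted p = 0.0038), and under the Ballgown adjustment its log2 fold change was -0.48 and did not pass the test. XBP1 (chr22:28794555-28800597), whose spliced mRNA encodes the active factor, had 197, 200.3 and 199 FPKM in WT and 202, 218 and 201 FPKM in KO. Its KO values lay above the WT values, but the log2 fold change of 0.06 (standard error 0.06, adjusted p = 0.38) did not pass the test, except after scaling by the median ratio, where it reached 0.19. The value per locus does not separate spliced from unspliced XBP1 mRNA. HERPUD1 was not listed by name in the table.

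In the cytosol, HSPB1, HSPA1A and HSPA1B, which are inducible by heat shock, were higher. HSPB1 (HSP27, chr7:76302544-76304295), a small heat shock protein that holds unfolding proteins in solution, had 15.1, 16.0 and 16.9 FPKM in WT and 32.9, 36.1 and 41.5 FPKM in KO, or 230% of the WT mean (log2 fold change 1.15, standard error 0.09, adjusted p = 1.1e-05). HSPA1A had 58.0, 55.8 and 58.7 FPKM in WT and 94.8, 94.5 and 100.5 FPKM in KO (log2 fold change 0.74, standard error 0.05, adjusted p = 7.1e-06), and HSPA1B had 62.7, 62.9 and 63.9 FPKM in WT and 101, 99.99 and 106 FPKM in KO (0.69, 0.05 and 7.8e-06). Every KO value of these genes lay above every WT value, against 23.6% of all loci. HSPA1A and HSPA1B encode the same inducible HSP70, and their transcripts were identical at 98.7% of 2150 aligned bases, so reads may have been divided between them by the quantification. Their sum, 121 ± 1.96 FPKM in WT and 199 ± 6.53 FPKM in KO (SD, n = 3 in each group), stood at 165% of WT.

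Other inducible genes and partners of HSP70 gave mixed values. DNAJB1 (HSP40), the inducible J-domain partner of HSP70, had 64.4, 69.9 and 74.0 FPKM in WT and 60.0, 66.6 and 60.8 FPKM in KO (log2 fold change -0.15, adjusted p = 0.086). HSPH1 (HSP105, HSP110 family), a nucleotide exchange factor of HSP70, had 15.4 ± 1.43 and 14.0 ± 0.540 FPKM (SD, n = 3 in each group; log2 fold change -0.13, adjusted p = 0.21), and the co-chaperone BAG3 had 9.45 ± 1.49 and 10.4 ± 0.175 FPKM (log2 fold change 0.13, adjusted p = 0.30). The groups overlapped for all 3. DNAJB1 was lower without WT replicate 1 or KO replicate 2 (-0.20 in each), and BAG3 was higher without WT replicate 3 (0.25). The other HSP110 family member, HSPA4 (APG-2), was higher, with 24.5, 23.1 and 24.1 FPKM in WT and 30.5, 29.4 and 31.0 FPKM in KO (log2 fold change 0.33, standard error 0.06, adjusted p = 0.0012). HSPA8 (HSC70, chr11:123057489-123063230), the constitutive HSP70 and the most abundant cytosolic one, had 218, 264 and 237 FPKM in WT and 247, 229.8 and 198 FPKM in KO. Its groups overlapped widely, and the log2 fold change of -0.09 had a 95% interval from -0.31 to 0.13.

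The cytosolic HSP90 proteins, which mature kinases and steroid receptors, differed in their values. HSP90AA1, the inducible form, was higher, with 158, 174 and 169.8 FPKM in WT and 211, 189 and 189 FPKM in KO (log2 fold change 0.23, standard error 0.06, adjusted p = 0.016). HSP90AB1, the constitutive form, had 743, 774 and 792 FPKM in WT and 726, 668 and 679.7 FPKM in KO. All its KO values lay below its WT values, but the log2 fold change of -0.16 did not pass the test (adjusted p = 0.087). Of the summed HSP90 level, HSP90AB1 made up 82.1% ± 0.432 in WT and 77.9% ± 0.346 in KO (SD, n = 3 in each group). The call for HSP90AA1 was lost without KO replicate 1 (log2 fold change 0.18) and under the Ballgown adjustment (0.25).

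The cytosolic J-domain proteins, 7 in all, were divided. DNAJC7 (TPR2), which binds both HSP70 and HSP90, had 24.8 ± 0.698 FPKM in WT and 31.8 ± 1.49 FPKM in KO (log2 fold change 0.34, adjusted p = 0.0012), and DNAJB2, a J-domain protein abundant in neurons, had 11.6 ± 0.695 and 14.4 ± 1.13 FPKM (0.29 and 0.015). DNAJB6, a suppressor of aggregation, had 28.7 ± 1.44 and 24.1 ± 0.974 FPKM (log2 fold change -0.24, adjusted p = 0.0098), and DNAJC2, a ribosome-bound J-domain protein, had 11.1 ± 1.61 and 8.36 ± 0.538 FPKM (-0.37 and 0.018; SD, n = 3 in each group for all 4). The first pair was higher and the second pair lower. DNAJA1, DNAJB1 and DNAJC8 did not pass the test, with log2 fold changes between -0.15 and -0.09. After scaling by the median ratio and under the Ballgown adjustment 0 of the 7 were lower: DNAJB6 stood at -0.11 and -0.20 and DNAJC2 at -0.25 and -0.12, and the Ballgown adjustment also ended the call for DNAJC7 (0.28). The call for DNAJC2 was lost without WT replicate 2 (-0.36), WT replicate 3 (-0.28) or KO replicate 3 (-0.32), and DNAJA1 was lower without WT replicate 1 (-0.17) or KO replicate 1 (-0.19). Of the cytosolic and nuclear FKBP proteins, FKBP4 (FKBP52), the HSP90 co-chaperone of steroid receptors, was lower in every KO library. It had 28.2, 30.7 and 31.3 FPKM in WT and 19.6, 19.9 and 18.3 FPKM in KO (log2 fold change -0.61, standard error 0.07, adjusted p = 7.8e-05), the lowest log2 fold change of the cytosolic members. FKBP1A (-0.11) and FKBP3 (0.18) did not pass the test, but did without KO replicate 3 (FKBP1A, -0.15) and KO replicate 2 (FKBP3, 0.24).

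The chaperonin CCT, a double ring of 8 kinds of subunit that folds actin and tubulin, was lower in 7 of 8 subunits, by small amounts. All 3 KO values lay below all WT values for each of the 8, and log2 fold changes ran from -0.32 (CCT4) to -0.12 (CCT7). Over all loci, 36.5% were called lower and 39.8% had all KO values below all WT values. CCT4 had 78.6, 91.7 and 87.0 FPKM in WT and 69.6, 72.7 and 62.9 FPKM in KO (standard error 0.08, adjusted p = 0.0060), and CCT7 had 179, 196 and 204 FPKM in WT and 176, 177 and 179 FPKM in KO (adjusted p = 0.11). The sum of the subunits was 829.9 ± 53.7 FPKM in WT and 711 ± 9.12 FPKM in KO (SD, n = 3 in each group), or 85.7% of WT. The median of the 8 was -0.23, beside -0.14 over all loci, and the count of lower subunits depended on the scaling: 3 were lower after scaling by the median ratio, where CCT7 turned to 0.01, and 0 under the library adjustment of Ballgown. Leaving out WT replicate 3 left 3 lower, WT replicate 2 left 4, and WT replicate 1 gave 8. The range of TCP1 (CCT1, log2 fold change -0.30) shares 558 bases with that of ACAT2 on the other strand. ACAT2 was higher in KO (log2 fold change 2.04), and the strand of the libraries is not given in the sources used here.

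Prefoldin, the co-chaperone that hands unfolded actin and tubulin to CCT, showed less. PFDN5 was lower, with 47.2, 50.6 and 47.7 FPKM in WT and 41.6, 40.2 and 41.9 FPKM in KO (log2 fold change -0.23, standard error 0.05, adjusted p = 0.0059). The other 4 subunits among the members overlapped between the groups and did not pass the test, with log2 fold changes from -0.23 (PFDN2) to 0.03 (PFDN1). A further subunit, VBP1, was counted with the other cytosolic co-chaperones described below. It also overlapped and did not pass the test (log2 fold change -0.12, adjusted p = 0.38). PFDN2 was spread most widely in WT, at 39.1, 51.6 and 56.7 FPKM, and without WT replicate 1 it was lower at -0.38. The call for PFDN5 was lost after scaling by the median ratio and under the Ballgown adjustment.

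**Figure D4:**
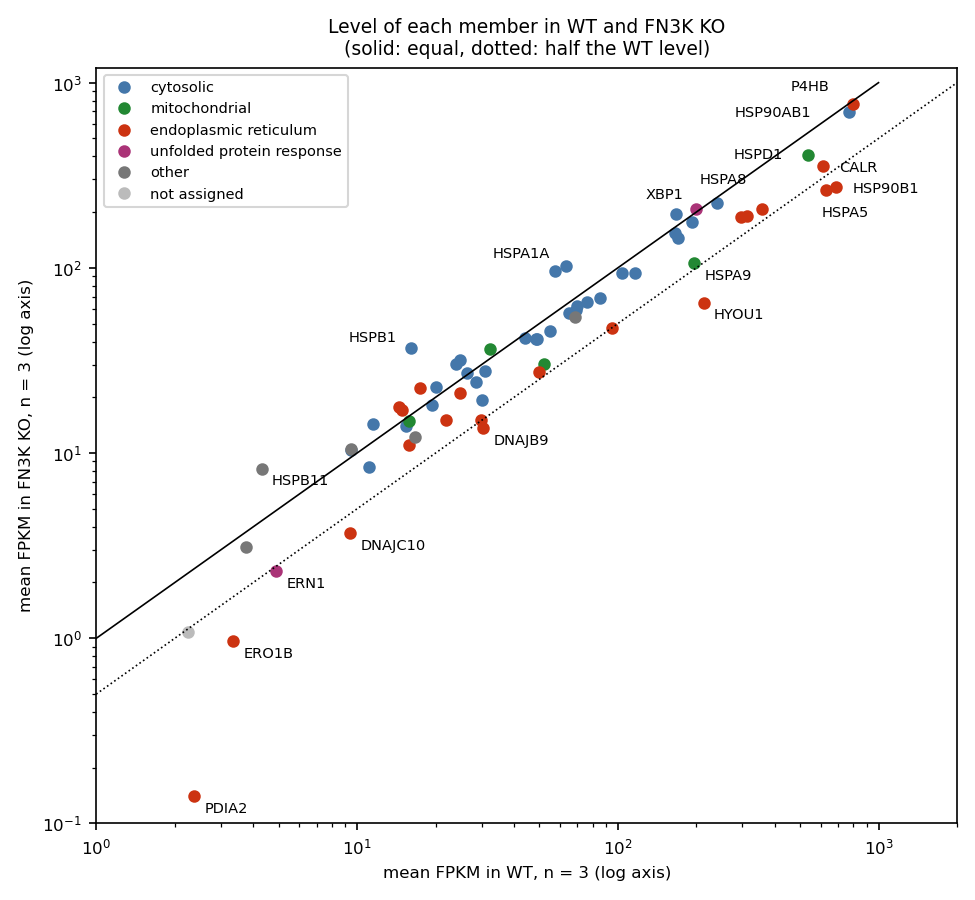
Mean FPKM of each member in WT (horizontal, log axis) and in FN3K KO (vertical, log axis), n = 3 in each group, coloured by compartment. Most cytosolic members lie along the line of equal levels, while HSPA5, HSP90B1 and HYOU1 lie below the dotted line that marks a KO level of 50% of WT, and P4HB lies at the line of equal levels.

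The 5 mitochondrial members did not move as a block. HSPA9 (mortalin, chr5:138553756-138575724), the mitochondrial HSP70 that pulls imported proteins through the inner membrane, had 180.2, 201 and 207 FPKM in WT and 108, 105 and 106 FPKM in KO, or 54.2% of the WT mean (log2 fold change -0.88, standard error 0.06, adjusted p = 7.8e-06). Its J-domain partner DNAJA3 (TID1) had 46.5, 54.8 and 55.3 FPKM in WT and 28.3, 32.1 and 29.96 FPKM in KO (log2 fold change -0.77, standard error 0.08, adjusted p = 6.6e-05). These partners were lower by similar amounts, and their groups were far apart. HSPD1 (HSP60), the chaperonin of the matrix, was lower by less, with 505, 557 and 553 FPKM in WT and 420.2, 393 and 413 FPKM in KO (log2 fold change -0.39, standard error 0.07, adjusted p = 0.0011). HSPE1 (HSP10), the lid of the HSP60 chamber, had 26.9, 36.5 and 33.1 FPKM in WT and 34.5, 40.7 and 34.6 FPKM in KO (log2 fold change 0.19, standard error 0.11, adjusted p = 0.18). Its groups overlapped. HSPD1 and HSPE1 are transcribed away from each other on chromosome 2, and their annotated ranges share 3464 bases, and without a known strand their reads there cannot be told apart. DNAJC11, a protein of the inner membrane organising system, had a log2 fold change of -0.08 and overlapping groups.

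The remaining members were few. HSPB11 (IFT25), which carries the name of a small heat shock protein but is a subunit of the intraflagellar transport complex, had 3.53, 4.33 and 5.03 FPKM in WT and 7.86, 7.85 and 8.99 FPKM in KO (log2 fold change 0.81, standard error 0.13, adjusted p = 0.00093). DNAJC12, a co-chaperone of the aromatic amino acid hydroxylases, had 16.7 ± 1.15 and 12.1 ± 0.308 FPKM (log2 fold change -0.43, adjusted p = 0.0012), and FKBP8, an anchor of the outer mitochondrial membrane, had 68.7 ± 3.77 and 54.2 ± 3.67 FPKM (-0.34 and 0.0025; SD, n = 3 in each group). HSPB11 was higher and these 2 were lower. DNAJC16 and DNAJC22 did not pass the test, with log2 fold changes of 0.15 and -0.21. The read-through locus DNAJC25-GNG10 ranged from 0.0458 to 4.92 FPKM over the 6 libraries and gave no call.

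Other genes of the same pathways, which the symbols above do not take in, were described from 5 lists. Of a list of other ER folding factors, which also takes in translocon, glycosylation and cargo receptor genes, 27 of 34 were listed. Of these, 21 were lower (77.8%) and 1 was higher (3.70%), against 36.5% and 21.2% of all loci (median -0.32). The 21 lower include translocon and glycosylation genes. The lowest were calmegin (CLGN), a calnexin relative, with 33.4 ± 0.562 FPKM in WT and 11.3 ± 0.399 FPKM in KO (SD, n = 3 in each group; log2 fold change -1.48, adjusted p = 3e-07), and CRELD2 (-1.13), an isomerase-like protein induced by ER stress. The exception was SDF2 (0.37), the paralog of SDF2L1, with 7.48 ± 0.698 and 9.92 ± 0.797 FPKM (SD, n = 3 in each group; adjusted p = 0.013), whose call was lost without KO replicate 1 (0.33).

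Of a list of unfolded protein response genes, mainly sensors and transcription factors, 17 of 21 were listed. Of these, 11 were lower (64.7%) and 3 were higher (17.6%), against 36.5% and 21.2% of all loci. Their median was -0.46, beside -0.14 over all loci, and the share called higher was near that of all loci. The list also holds proteases, phosphatase subunits and target genes of the response, and the 11 lower include genes of each kind. The 3 higher were all transcription factors. DDIT3 (CHOP), a transcription factor of prolonged ER stress, had 19.7, 27.5 and 26.1 FPKM in WT and 8.63, 13.3 and 10.2 FPKM in KO (log2 fold change -1.12, standard error 0.16, adjusted p = 0.00042). MBTPS1 (site 1 protease), which cuts ATF6 and the SREBP factors, had a log2 fold change of -0.69. ATF6 itself (-0.67) and ATF4 (-0.46), both named here after their values were seen, were lower as well. CREB3L3, a liver factor cut by the same protease, had 13.0, 10.0 and 10.4 FPKM in WT and 19.0, 18.6 and 22.5 FPKM in KO (0.79, adjusted p = 0.00036), and ATF3 was higher at 0.43 (adjusted p = 0.032). The call for ATF3 was lost without WT replicate 1 (0.28), WT replicate 2 (0.45), KO replicate 1 (0.44) or KO replicate 2 (0.34).

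Of ER quality control and degradation genes, 15 of 26 were listed, 6 were lower and 3 were higher (median -0.19). These shares, 40.0% and 20.0%, lie near those of all loci, 36.5% and 21.2%. SEL1L, the adaptor of the HRD1 ubiquitin ligase, had 22.5, 28.4 and 26.9 FPKM in WT and 10.4, 11.2 and 9.30 FPKM in KO (log2 fold change -1.25, standard error 0.10, adjusted p = 1.6e-05), and VIMP (selenoprotein S) was lower at -0.65. The cytosolic extraction factors VCP (0.39) and UFD1L (0.52) were higher, VCP with 61.2 ± 0.671 FPKM in WT and 80.7 ± 0.832 FPKM in KO (SD, n = 3 in each group). Of a list of heat shock factors and cytosolic co-chaperones, 21 of 37 genes were listed, all of them co-chaperones and other folding factors, since HSF1 and HSF2 were not listed by name. Of these, 8 were lower (38.1%, near the 36.5% of all loci) and 0 were higher, and their median of -0.09 lay above the all-loci median of -0.14. Their lowest were the subunits of the nascent polypeptide-associated complex, NACA (-0.68) and BTF3 (-0.67), which meet chains as they leave the ribosome. Of other mitochondrial folding and quality control factors, 15 of 20 were listed, 7 were lower (46.7%) and 1 was higher (6.67%), against 36.5% and 21.2% of all loci, and the median of -0.13 was near the -0.14 of all loci. The matrix protease LONP1 had 50.3, 57.9 and 60.6 FPKM in WT and 29.4, 30.6 and 30.4 FPKM in KO (log2 fold change -0.87, standard error 0.07, adjusted p = 1.9e-05), prohibitin 2 (PHB2) was lower at -0.76, and the inner membrane protease SPG7 was higher at 0.19 (adjusted p = 0.045), a call that was lost with any library left out (0.16 to 0.21). Of the genes named from these lists other than ATF6 and ATF4, the Ballgown adjustment ended the calls for CRELD2 (-0.92), SDF2 (0.15), DDIT3 (-0.64), MBTPS1 (-0.49), CREB3L3 (0.55) and UFD1L (0.48), and it moved VIMP to -0.34 and ATF3 to 0.86.

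**Figure D5:**
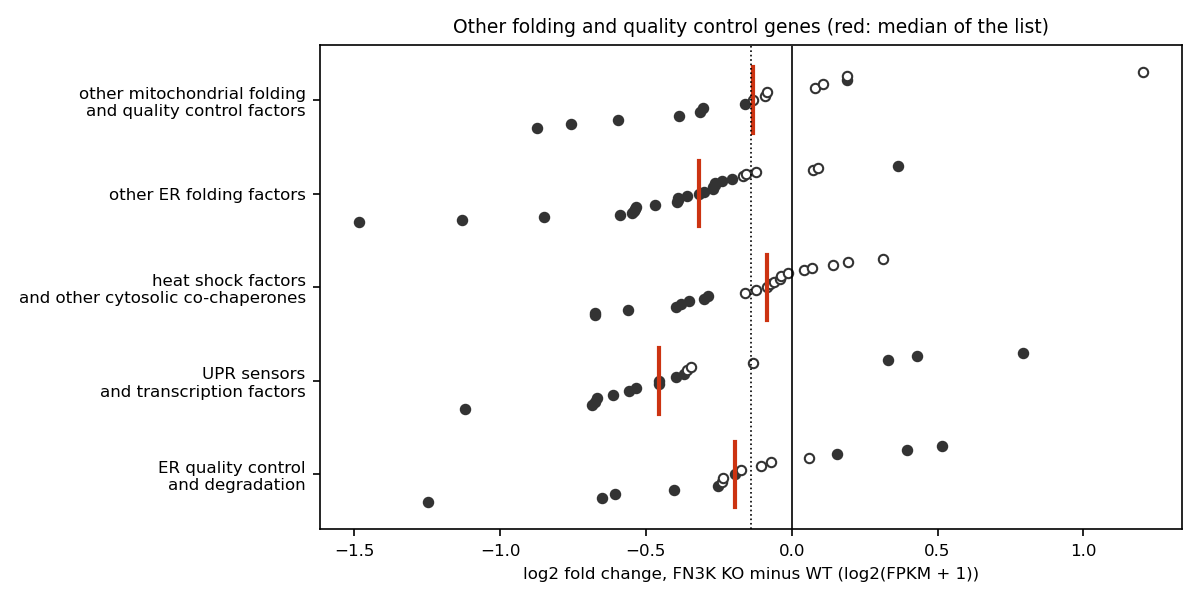
Log2 fold change (horizontal, log2(FPKM + 1), KO minus WT) of the listed genes of 5 other folding and quality control lists, 1 point per gene; filled points passed an adjusted p under 0.05, red bars are the medians of the lists, the solid line marks 0 and the dotted line the all-loci median. The medians run from -0.46 for the unfolded protein response to -0.09 for the cytosolic co-chaperones.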

How the data were processed

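Polyadenylated RNA of 6 HepG2 plates, 3 of them WT and 3 FN3K KO, was captured on oligo(dT) beads and sequenced. Per the submitters' processing notes, the authors used HISAT2, StringTie 2.0.6 and the build GRCh38.p5, and they deposited FPKM values per assembled locus. Filters and library strand are not given in the sources used here. Low FPKM values did not step by whole reads, so depth is unknown and no counting interval was computed.

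Members were taken by gene symbol, and compartments were assigned from textbook knowledge. The members and lists were chosen with earlier results of these data known. All 6357 loci were tested on log2(FPKM + 1) with limma 3.58.1 in R 4.3.3 (lmFit, eBayes with a variance trend), with Benjamini-Hochberg adjustment over all loci. The p-values measure the spread between plates, which may be technical. The fit was checked on simulated data. Coordinates of members are from GENCODE version 29 on GRCh38, matched by transcript for all 66 members, of which 45 overlap another annotated gene. Python 3.11.15 was used with pandas 2.3.3 and matplotlib 3.10.9.

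The members and other genes named were those fixed by name (the main HSP70, HSP90, HSP60, lectin, isomerase and unfolded protein response genes), up to 4 with the highest and 4 with the lowest log2 fold change in each compartment among called genes that averaged 1 FPKM or more and whose groups did not overlap, up to 2 of each kind in the 5 other lists, the ends of the CCT and prefoldin families, and exceptions to a statement. The 13 alternatives were leaving out each of the 6 libraries, a replicate block, the library adjustment of Ballgown, no variance trend, 2 other scalings, a filter at 1 FPKM and a pseudocount of 0.1.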

Additional observations from a re-analysis of the deposited data

How the results depend on the processing

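Of the 44 called members, 18 kept their call under all 13 alternatives (14 lower and 4 higher, 11 of them in the ER), and no called member changed sign. Scaling by the median ratio moved the median of all loci from -0.14 to -0.02 and the split of calls from 1348 higher and 2322 lower to 1804 and 1628. Under it the cytosolic members median log2 fold change was -0.0105, and the median was -0.10 for all members, -0.26 for mitochondrial and -0.65 for ER members, with 4 cytosolic members lower and 1 mitochondrial member (HSPE1) higher, while 16 ER members were still lower. With the 75th percentile these medians were -0.18 for all, -0.093 for cytosolic and -0.73 for ER members. The library adjustment of Ballgown called 1127 loci against 3670. It left 14 members lower and 4 higher, 1 cytosolic lower and 4 higher, 11 ER lower and 0 higher, and 2 members higher past the fold limit, with medians of -0.16, -0.052, -0.34 and -0.63 for all, cytosolic, mitochondrial and ER members. Signs that turned were all of uncalled members. By the median ratio they were FKBP1A (0.025), HSPA8 (0.044), DNAJC8 (0.045), CCT7 (0.0095), PFDN6 (0.039), DNAJC11 (0.042) and P4HB (0.080). By the Ballgown adjustment they were HSPH1 (0.058), HSPA8 (0.014), DNAJB1 (0.029), PFDN2 (0.092), PFDN6 (0.27), PFDN1 (-0.046), DNAJC11 (0.069), FKBP2 (0.0088) and DNAJC22 (0.21). PFDN1 also turned without WT replicate 2 or KO replicate 3 (range -0.0082 to 0.092 with single libraries left out), and DNAJC8 without KO replicate 2 (range -0.16 to 0.015). The cause was not tested. Leaving out single libraries, 28 to 38 members were lower and 9 to 10 higher, 6 to 15 cytosolic members lower, 16 to 17 ER members lower and 1 to 2 higher, and the medians ran from -0.27 to -0.16 for all, from -0.19 to -0.10 for cytosolic and from -0.85 to -0.74 for ER members. Where a group keeps 2 libraries, its spread is read with that of the other group. Same-numbered libraries did not deviate together (correlations 0.0096, 0.0061 and 0.046), and the main fit did not treat them as pairs. Such correlations cannot show whether the plates were grown or prepared in pairs. A replicate block gave 34 members lower and 10 higher, 17 ER members lower and 2 higher, and 3707 loci called, against 3670.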
